A study of Arabidopsis thaliana with 6 samples.

Results

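The genes of the 14-3-3 protein family described here are chi (AT4G09000), omega (AT1G78300), psi (AT5G38480), phi (AT1G35160), upsilon (AT5G16050), lambda (AT5G10450), nu (AT3G02520), kappa (AT5G65430), epsilon (AT1G22300) and omicron (AT1G34760). These 10 genes were named by identifier among 27444 nuclear protein-coding genes of Arabidopsis thaliana. Their peaks were selected on position, as every peak that overlapped the gene or the 3 kb on either side. The rule found 25 of 19201 peaks, of which 17 came from list 1, 5 from list 2 and 3 from list 3. The family was chosen by its peaks in these lists, so counts and fold enrichments are descriptions and carry no test. The growth-regulating factors, which carry the same GRF symbols, are a different family and were left out.

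14-3-3 proteins are small acidic adaptors that form dimers and bind other proteins at phosphorylated serine or threonine, changing where a partner sits, how long it lasts or whether it is active. In plants they bind the brassinosteroid factors BZR1 and BES1, the proton pumps of the plasma membrane, the phototropins and nitrate reductase, and so touch hormone response, cell expansion and light signalling. The Arabidopsis proteins were first called G-box factor 14-3-3 homologues (GF14), because they were found in complexes on G-box DNA. The G-box is also the main binding element of PIF4, a bHLH factor that promotes elongation of the seedling stem and is removed after phytochrome activation. By sequence the family divides into an epsilon group, here epsilon and omicron, and a non-epsilon group, here the other 8 genes.

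PIF4 binding was mapped by chromatin immunoprecipitation with sequencing in whole seedlings that overexpressed Myc-tagged PIF4, with wild-type seedlings, which carry no tag, as the control. All seedlings received 3 h of white light, grew for 3 days in darkness at 21 °C, and anti-Myc antibody was used for every precipitation. There were 3 libraries of each genotype, and each pooled 4 ChIP assays from 2 biological replicates. The design text calls the tagged line P1M, and the promoter that drives the transgene is not given in the sources used here.

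Each PIF4-Myc library gave 1 list of peaks, for which the authors used a wild-type ChIP as background, numbered here by the replicate. Lists 1, 2 and 3 held 12177, 4093 and 2931 peaks with median fold enrichments of 0.99, 2.46 and 4.17, from 12766185, 9385807 and 12292381 treatment tags. Fold enrichment is the authors' value for single peaks and has no replicate error. The peak caller defines it as the ratio of tags at the peak summit to the local expectation. Folds were therefore read against the other peaks of the same list. Across lists they were set only beside the same values of other peaks or genes. The list headers name the same control for lists 1 and 2, and 25.3% of the overlapping peaks of lists 2 and 3 shared both edges to the base, so the lists were not read as independent replicates. List 1 stood apart: all its tag values were multiples of 5, beside 20.5% and 20.8% in lists 2 and 3. Of its folds 51.2% were below 1, although its peaks were called at a p cutoff of 1e-05. Its folds are therefore not shown to be the ratio to the local expectation. Its summits lay outside genes in 37.0% of cases, no more than the 37.2% and 37.5% found after shifting them by 2000 bp, whereas in list 3 the share was 64.6%, against 42.7% after a shift to lower coordinates. Results are therefore also given without list 1.

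A peak lay within 3 kb of 9 of the 10 genes in at least 1 list, but the family was reached about as often as genes in general. In list 1, 8 of the 10 genes had a peak, against 63.5% of all protein-coding genes. In list 2 there were 4 genes, psi, kappa, epsilon and omicron, against 26.4% of all genes. In list 3 there were 3 genes, psi, epsilon and omicron, against 20.2%. At least 2 lists had a peak at psi, kappa, epsilon and omicron, 4 of 10 genes against 26.0%, and all 3 lists had one at epsilon and omicron, 2 of 10 against 12.7%. Without list 1, lists 2 and 3 both had a peak at psi, epsilon and omicron, 3 of 10 against 17.1%. Each gene is 10% of the family, so these shares differ from the background by no more than 2 genes. The gene without any peak was phi, and 28.6% of all genes had none. The members are of ordinary size, 1810 to 2685 bp with a median of 2184 bp, beside a median of 2078 bp for all protein-coding genes.

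**Figure D1:**
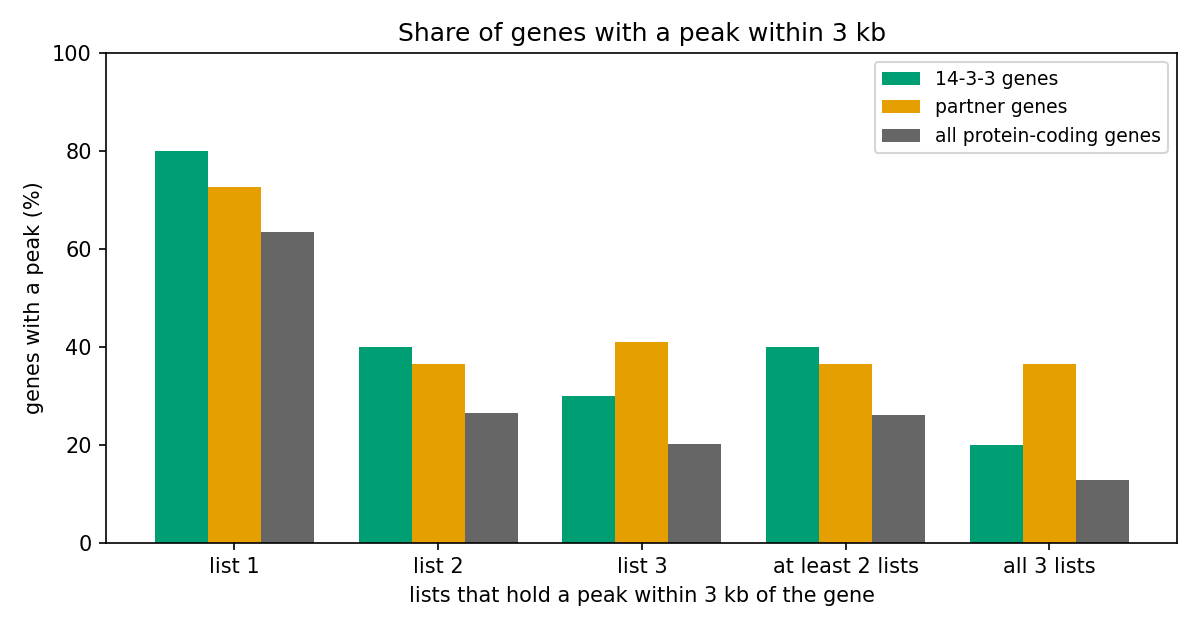
Share of genes in percent (vertical axis) with a peak within 3 kb in list 1, list 2, list 3, at least 2 lists and all 3 lists (horizontal axis), for the 10 14-3-3 genes, 22 genes of known 14-3-3 partners and all 27444 nuclear protein-coding genes. List 1 reached 63.5% of all genes, and the 14-3-3 bars of 80%, 40%, 30%, 40% and 20% stand for 8, 4, 3, 4 and 2 genes.

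Omicron, a member of the epsilon group that is also listed as ROOT HAIR SPECIFIC 5, had the highest folds of the 10 genes in lists 2 and 3. Its fold was 1.22 in the first list, 2.93 in the second and 4.58 in the third. The peak of lists 2 and 3 had the same edges, chr1:12745417-12746030 on TAIR10, and the same summit, which lay inside the gene close to its higher-coordinate end. It held 109 tags in list 2 and 93 in list 3. The list 1 peak, at 12746186 to 12746555, did not overlap it and had its summit in the neighbouring gene AT1G34770. That neighbour is 657 bp away, lies within reach of the same peaks, and has the same 3 highest folds. Omicron's peak stood well inside the range of its lists, since 29.6% of the peaks in list 2 and 39.0% of those in list 3 had a higher fold.

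Epsilon, which gives that group its name, had folds of 1.11, 2.10 and 3.38 over lists 1 to 3. Its peak spanned chr1:7878345-7879278 in both list 2 and list 3, with 201 and 171 tags, and its summit was 87 bp outside the lower-coordinate end of the gene. The list 1 peak, 7879027 to 7879371, overlapped this peak by 252 bp, with its summit inside the gene and 603 bp from that of the other lists. Folds of epsilon were low for lists 2 and 3, where 72.1% and 77.1% of all peaks were higher. Epsilon was the gene nearest to the summit in every list, and the neighbour on the lower-coordinate side, AT1G22290, lies 797 bp from epsilon.

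Psi, which is also listed as RCI1 and is known as a gene induced by cold, had no peak in list 1, a fold of 2.76 in list 2 and a fold of 3.98 in list 3. Its peak was again identical in lists 2 and 3, at chr5:15409342-15409983, with 134 and 117 tags and a summit 96 bp outside the lower-coordinate end of the gene. Of the member peaks this had the best rank by p-value in both lists, 1248 of 4093 in list 2 and 1315 of 2931 in list 3. Psi was the gene nearest to the summit, and the neighbour on that side, RAD23D, lies 1939 bp from psi.

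Kappa had peaks in lists 1 and 2 and none in list 3. One list 2 peak, chr5:26147561-26148817, had a fold of 1.63 and a summit 98 bp outside the lower-coordinate end of kappa. The other, 26150959 to 26151635, had a fold of 2.74 and lay beyond the opposite end, where AT5G65440 was closer to the summit. List 1 had 3 peaks at kappa with folds of 0.91, 0.89 and 1.23, and the highest of them, 26151067 to 26151721, overlapped the second list 2 peak by 569 bp. Both list 2 peaks were close to the authors' p cutoff of 1e-05, with scores of 52.22 and 50.87 where 50 is the cutoff, and ranks of 3898 and 4018 of 4093.

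The peaks of psi, epsilon and omicron had the same edges and the same summit in lists 2 and 3, and there they followed the other peaks of that kind. The tags of list 2 divided by those of list 3 were 1.15 for psi, 1.18 for epsilon and 1.17 for omicron. Over all 621 pairs of peaks with equal edges this ratio had a median of 1.19, with 90% of the pairs between 1.10 and 1.31. The fold of list 3 divided by that of list 2 was 1.44, 1.61 and 1.56, beside a median of 1.60 over those pairs, with 90% between 1.29 and 1.91. List 3 thus gave higher folds than list 2 at these genes, with fewer tags, as it did at the median of those pairs. The headers name different controls for lists 2 and 3. Among these pairs 45.9% had a higher list 2 fold than omicron, 53.5% a higher one than psi and 87.0% a higher one than epsilon.

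**Figure D2:**
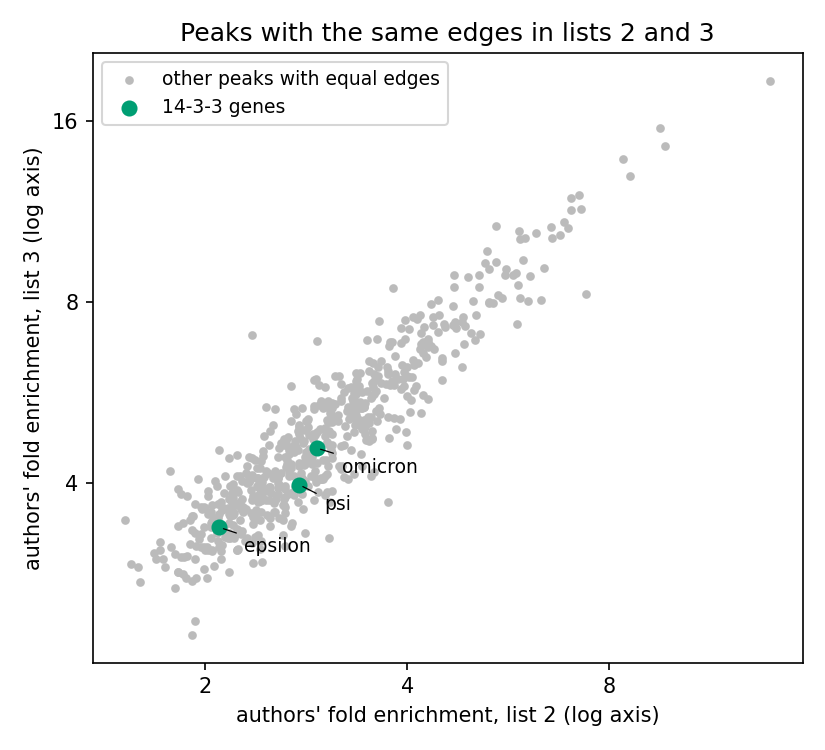
Authors' fold enrichment in list 2 (horizontal, log axis) and list 3 (vertical, log axis) of the 621 peaks with equal edges in both lists, 1 point per peak, with psi, epsilon and omicron in green. Psi and omicron lie near the middle of the cloud and epsilon in its lower part, at folds of 2.10 to 2.93 in list 2 and 3.38 to 4.58 in list 3.

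In psi, kappa and epsilon the summit of a list 2 peak lay 87 to 98 bp outside one end of the gene. A limit of 100 bp, drawn just above these values after they were seen, held 3 of the 5 member summits in list 2 by construction. Of all 4093 summits it held 7.79%. The member peaks were picked for lying within 3 kb of a gene and the others were not, so these shares cannot be compared. In list 3 the limit held 2 of 3 member summits, beside 8.46% of all 2931. These are the psi and epsilon peaks already counted in list 2. In list 1 it held 2 of 17 member summits, beside 6.84% of all. The annotation used gives no strand, so whether these ends are starts or stops of transcription is not given here.

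**Figure D3:**
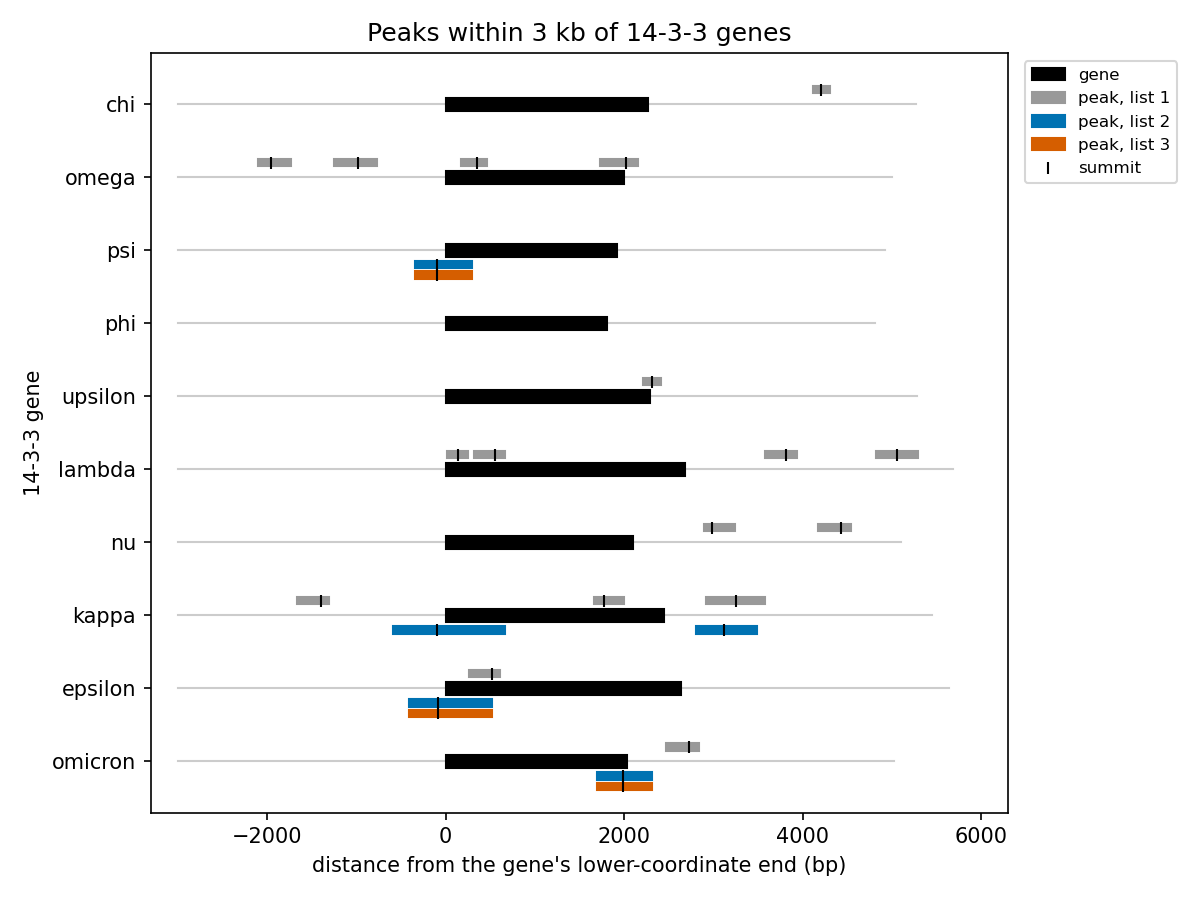
Positions of the 25 peaks, in bp from the lower-coordinate end of each gene (horizontal axis), for the 10 genes (rows). Black bars are genes, the thin line is the window of 3 kb on either side, coloured bars are peaks of lists 1, 2 and 3, and ticks are summits; the coinciding bars of lists 2 and 3 at psi, epsilon and omicron are peaks with equal edges, and phi has none.

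The other members with a peak, chi, omega, upsilon, lambda and nu, were reached by list 1 alone. Chi had 1 peak, chr4:5779321-5779510, with a fold of 1.73, which only 4.77% of list 1 exceeded. The summit lay inside TL29, the neighbouring gene for a protein of the thylakoid lumen, 1934 bp from chi, and AT4G09012 was also nearer than chi. Omega had 4 peaks with folds of 1.14, 1.54, 0.82 and 0.71 along the chromosome. For the first 2 of these SNRK2-8, a gene of the SnRK2 kinases, was nearer to the summit, and the other 2 had summits inside omega and 28 bp beyond it.

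Upsilon, which has been tied to photoperiodic flowering, had a single peak with a fold of 0.95 and a summit 26 bp outside the gene. Lambda, whose protein binds phototropin 2, had 4 peaks with folds of 0.88, 0.68, 0.56 and 1.26. The first 2 had summits inside lambda, and AT5G10460 was nearer for the others, as was KAC1 for the last. Nu had 2 peaks with folds of 0.68 and 0.80, both with summits inside AT3G02530, and RAD23C was also nearer than nu to the second. Of these folds of upsilon, lambda and nu, only the 1.26 at lambda lies above the list 1 median of 0.99. The summit of that peak lay inside AT5G10460.

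**Figure D4:**
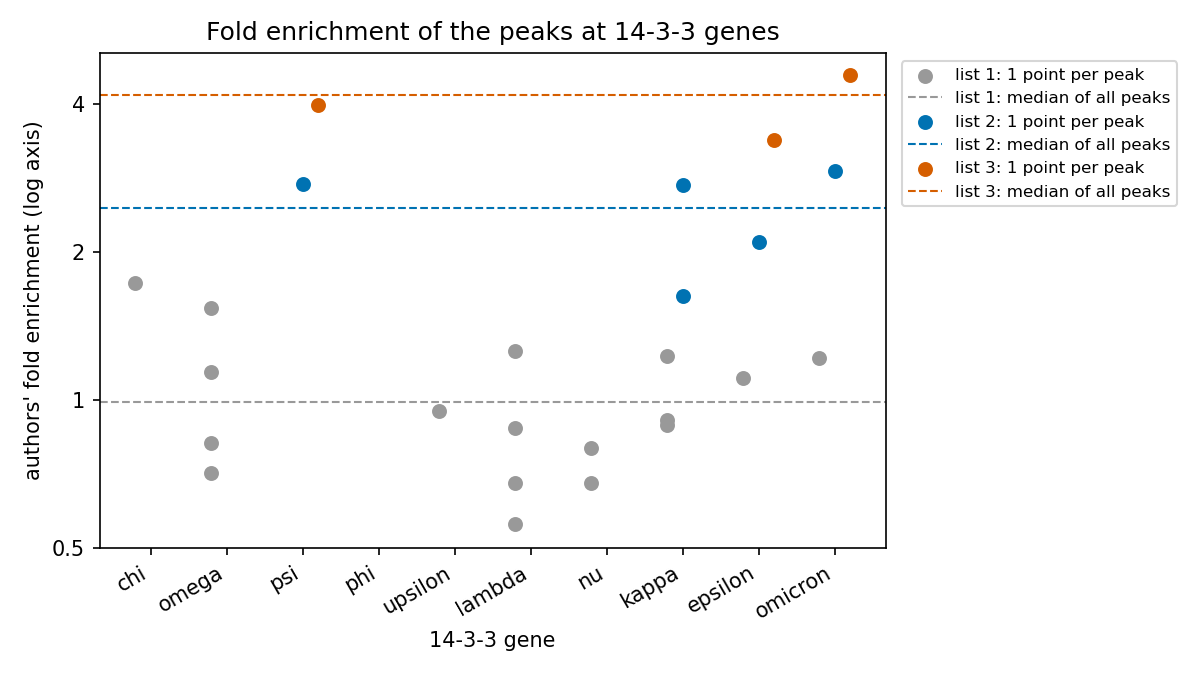
Authors' fold enrichment (vertical, log axis) of each peak within 3 kb of the 10 genes (horizontal axis), 1 point per peak, coloured by list, with the median of all peaks in the same list as a dashed line. Of the 17 list 1 peaks 7 lie above the list median of 0.99, of the 5 list 2 peaks 3 lie above 2.46, and of the 3 list 3 peaks 1 lies above 4.17.

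Over all members, the share of peaks with a higher fold was 4.77% to 96.9% in list 1 and 29.6% to 97.5% in list 2. In list 3 that share was 39.0% to 77.1%. Folds ran from 0.56 to 1.73 in list 1, where 10 of the 17 were below 1, from 1.63 to 2.93 in list 2 and from 3.38 to 4.58 in list 3. The highest folds of the whole lists were 5.30, 14.5 and 21.8. Taking the highest fold at each gene with a peak, the list 1 median was 1.23 over 8 members and 1.06 over 17425 genes. For chi, omega, lambda, nu, kappa and omicron, that list 1 fold came from a peak nearer to another gene. The list 2 median was 2.75 over 4 members and 2.51 over 7238 genes. The list 3 median was 3.98 over 3 members and 4.22 over 5533 genes. The authors' false discovery rate was 37.98% to 86.88% for the member peaks of list 2, 56.9% to 82.0% for those of list 3 and 1.28% to 17.4% for those of list 1. The medians over all peaks were 63.9%, 65.2% and 3.81% in lists 2, 3 and 1, each inside the range of the member peaks. Of the 25 peaks, 7 had the summit in the member itself, 15 had the member as the nearest gene, and 10 were nearer to another gene. Just inside the limit of 3 kb, a list 1 peak with a fold of 1.26 lay 2140 bp from lambda, and just outside it a list 1 peak with a fold of 0.94 lay 3439 bp from the same gene.

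Some members have neighbours of 1 family. Psi lies next to RAD23D and nu lies 2 genes from RAD23C, both genes for adaptors that carry ubiquitinated proteins, while kappa lies next to CYCD4;1 and lambda next to CYCD4;2, both cyclin genes. Psi had peaks in lists 2 and 3 and nu in list 1 alone. Kappa had peaks in lists 1 and 2 and lambda in list 1 alone.

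The remaining expressed members of the family are mu (AT2G42590), iota (AT1G26480) and pi (AT1G78220), all of the epsilon group. Mu had 2 list 1 peaks with folds of 0.90 and 1.10, the second inside the gene, and iota had no peak. Pi had highest folds of 0.66, 2.81 and 4.59 in lists 1, 2 and 3, but its peaks of lists 2 and 3, from 29429039 to 29429809 and to 29429797 on chromosome 1, were nearer to AT1G78230. With these genes included, all 3 lists had a peak at 3 of 5 genes of the epsilon group and 0 of 8 of the non-epsilon group, beside 12.7% of all genes. Without list 1, lists 2 and 3 both had one at the same 3 of 5 genes and at 1 of 8, psi, beside 17.1% of all genes. At least 2 lists had one at 3 of 5 and at 2 of 8, psi and kappa, beside 26.0%. Where the gene had to be the nearest to the summit, 1 of 5 genes, epsilon, had a peak in all 3 lists, and 0 of 8 of the non-epsilon group. Pi lost its peaks of lists 2 and 3 under that rule and omicron its list 1 peak. The share of all genes under that rule is not given here. None of these counts was tested, because the family was chosen with its peaks known.

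Genes for proteins that bind 14-3-3 proteins were looked at as a list of 22. List 1 had a peak within 3 kb of 16 of them (72.7%, beside 63.5% of all genes), list 2 of 8 (36.4%, beside 26.4%) and list 3 of 9 (40.9%, beside 20.2%). All 3 lists reached 8 genes (36.4%, beside 12.7%), and without list 1 lists 2 and 3 both reached the same 8 (beside 17.1%). This list too was written with earlier results of these data known and was not tested. AHA1, a plasma membrane proton pump, had highest folds of 0.89, 4.69 and 8.88 over lists 1 to 3, but the peak behind those of lists 2 and 3, chr2:8229975-8231083, was nearer to AT2G18970. A peak 1480 bp from AHA1, with AHA1 as the nearest gene, had folds of 2.27 and 4.35. ABF3, a bZIP factor of abscisic acid response, had 0.66, 4.46 and 6.77, with a summit 684 bp from the gene in lists 2 and 3. KAT1, a potassium channel of guard cells, had 0.79, 4.31 and 6.52, with summits 260 to 442 bp from the gene. PHOT1, the blue light receptor of phototropism, had 2.01, 3.68 and 6.31. The list 1 value came from a peak with its summit inside PHOT1. Those of lists 2 and 3 came from a peak with summits 1487 and 1490 bp outside it. These 4 genes were picked from the 22 by number of lists and median fold, so their folds describe the upper end of that list. No list had a peak within 3 kb of BES1, FD, CO, NIA2 or ABI5, and BZR1 and PIF7 had peaks in list 1 alone.

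Over all 3482 genes with a peak in every list, the folds most like those of omicron were looked for by the distance between the log2 folds of the 3 lists. The closest was its neighbour AT1G34770, which shares its peaks. Next came AT3G47030, with folds of 1.21, 2.86 and 4.51, and AT4G19430, with 1.20, 2.93 and 4.70. The distance gave list 1 the same weight as the other lists, although its folds are not shown to be ratios. The list 1 fold of omicron also came from a peak with its summit inside AT1G34770.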

How the data were processed

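The 3 peak lists of the PIF4-Myc libraries were used as deposited. Wild-type libraries entered as controls inside the lists. Per the submitters' processing notes, the tools were MACS 1.4.1, Bowtie 0.12.7 and CASAVA 1.8.0, and TAIR10 was the build. Per the file headers, MACS called each library separately at a p cutoff of 1e-05, in version 1.4.0rc2 for lists 1 and 3 and 1.4.1 for list 2. Tags per peak are counts deposited by the authors for lists 2 and 3. In list 1 every tag value was a multiple of 5, so the deposited values were treated as a score. The deposited score of each peak is the p-value as a negative log10, multiplied by 10, per the file headers. Fold enrichment, which the peak caller defines as a ratio, and the false discovery rate, a percent, were both given by the authors' peak caller. For list 1 the folds are not shown to be that ratio. Depth is known from the headers alone, where the filtered tags of list 1 (112342435) exceed their total, so no counting interval could be given.

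Genes came from the RefSeq table of TAIR10.1, whose nuclear coordinates were taken to equal those of TAIR10. Shifting the summits by 2000 bp in either direction served as a coarse check of this for lists 2 and 3. It cannot show offsets much smaller than the shift, so the short distances to gene ends rest on the coordinates being equal. All 35 listed identifiers matched. A peak belonged to a gene when it overlapped the gene or the 3 kb on either side by at least 1 bp. The highest fold stood for a gene, and ranks follow the score. The members and lists were chosen with earlier results of these data known. Named genes were all members, the other 3 family genes, genes nearer to a summit than the member, 4 partners ranked by number of lists and, within that, by median fold, and the 3 genes most like omicron. No test was planned or made. Assignment was tested on simulated peaks. Motifs and sequences were not analysed here. Scripts ran in Python 3.11.15 with pandas 2.3.3.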

Additional observations from a re-analysis of the deposited data

How the results depend on the processing

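Of 45 recomputed counts of 14-3-3 genes with a peak, 32 stayed within 1.5 times the reported count and 13 did not. All counts with windows of 1, 2 or 5 kb, or with the summit in the window, stayed within that range. With the member required to be the gene nearest to the summit, 5 genes had a list 1 peak and 1 gene had peaks in all 3 lists. With the better-ranked 50% of each list, 2 genes had a peak in list 2, 1 in list 3, 2 in at least 2 lists and 0 in all 3. With equal numbers of peaks, 5 had one in list 1 and 1 in all 3. At an authors' false discovery rate of 5% or less, 0 had a peak in list 2, in list 3, in at least 2 lists or in all 3. That limit shut out most peaks of lists 2 and 3 wherever they lay, since their median rates were 63.9% and 65.2%. The peak ranked 177 of 4093 in list 2 had 6.21%, and the peak ranked 86 of 2931 in list 3 had 12.79%. The share of all genes under these changed settings is not given here, so these counts are not read as a trait of the family. Leaving out each list in turn left 2 to 3 genes with peaks in the other lists. The value was 2, epsilon and omicron, without list 2. With the peak nearest to the gene in place of the highest, 10 of 15 folds kept their value. Each of these came from a gene with 1 peak in that list, so no other value was possible. The 5 folds with a choice of peaks all moved. In list 1 omega went from 1.54 to 0.82, lambda from 1.26 to 0.88, nu from 0.8 to 0.68 and kappa from 1.23 to 0.89. In list 2 kappa went from 2.74 to 1.63. No paired analysis was possible because each list was already called against a wild-type control and no test was made. The cause of these differences was not tested.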
